A study of Mus musculus with 6 samples.

Results

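The 40 genes of glycolysis, glycogen turnover and the creatine kinases were examined for RNA polymerase II (Pol II) and for the transcription factor Sox6 in cultured mouse fetal myotubes. The genes were chosen by name, from their place in these pathways and with no threshold on a measured value, and all 40 were found among the 23048 genes of the mm9 annotation that carry a RefSeq name. They comprise 5 genes of glucose entry, 9 of upper glycolysis, 8 of lower glycolysis, 5 of pyruvate and lactate handling, 10 of glycogen and 3 creatine kinases. Names follow the mm9 annotation, in which Pkm2 is the muscle pyruvate kinase gene now called Pkm and Pgm2 is the phosphoglucomutase gene on chromosome 4.

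All cells were wild type C57BL/6 myoblasts from limb muscle of fetuses at stage E18.5, grown for 17 passages and then held in medium with 2% horse serum for 48 hours so that they fused into myotubes. Chromatin was immunoprecipitated with an antibody to Sox6 (2 libraries) or to the repeated tail of Pol II (2 libraries), and 2 input libraries of chromatin before immunoprecipitation served as the background. There was no second condition, so each comparison is of ChIP with input, or of one gene with another. Mapped reads numbered 2985437 and 1468604 for Sox6, 1538757 and 2762155 for Pol II, and 21973495 and 24249850 for input in replicates 1 and 2. Reads were 36 bp long in input replicate 1 and 39 bp in every other library, and the effect of read length on the counts was not tested. The myotube label was checked with marker genes. All 10 skeletal myotube markers had more Pol II over the gene body than input, at log2 ratios of 4.30 to 6.75, and so did the myoblast genes Pax7 (log2 1.21) and Myf5 (2.28). None of 8 fibroblast markers was higher and 6 were lower, with Col1a1 at 0.08 and Thy1 at 0.80 not called, all 3 endothelial markers were lower, and among the blood and nerve markers Cd68 (2.74) and Tubb3 (1.07) were higher.

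Glycolysis splits glucose into pyruvate in the cytosol, and muscle relies on it for fast contraction. Muscle stores glucose as glycogen, which the phosphorylase Pygm breaks down and the synthase Gys1 builds, and it buffers ATP with creatine kinase, a dimer of Ckm subunits in mature muscle and of Ckb subunits in brain and immature muscle. Many steps have related genes for muscle and for other tissues, among them Eno3 against Eno1 for enolase, Pgam2 against Pgam1 for phosphoglycerate mutase, Pfkm against Pfkl and Pfkp for phosphofructokinase, and Pygm against Pygb and Pygl for glycogen phosphorylase. Sox6 is an HMG box factor known in muscle for holding down slow fibre genes in fast fibres. The Pol II antibody used recognizes a phosphorylated form of the enzyme, so reads lie along genes that are being transcribed as well as at their starts.

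The 250 bases before the annotated start are printed for 4 muscle genes with Pol II peaks at the start in both lists (Ckm, Pgam2, Eno3 and Pygm). They are also printed for Eno1, which has such peaks and a Sox6 peak inside the gene. The muscle genes Aldoa, Gys1 and Ldha had Pol II peaks at the start in both lists too and are not printed. They were read from NCBI Build 37 (mm9), 5' to 3' on the strand of the gene. Capitals mark E-box matches (CAGCTG or CAGGTG), Mef2 sites, MCAT matches (GGAATG) and TATAAA, searched on both strands.
Ckm (chr7:19996193-19996442, plus strand): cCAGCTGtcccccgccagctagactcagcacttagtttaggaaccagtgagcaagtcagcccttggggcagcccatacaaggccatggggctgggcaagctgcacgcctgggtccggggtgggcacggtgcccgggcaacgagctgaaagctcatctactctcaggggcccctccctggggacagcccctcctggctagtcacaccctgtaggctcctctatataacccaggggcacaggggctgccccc
Pgam2 (chr11:5703737-5703986, minus strand): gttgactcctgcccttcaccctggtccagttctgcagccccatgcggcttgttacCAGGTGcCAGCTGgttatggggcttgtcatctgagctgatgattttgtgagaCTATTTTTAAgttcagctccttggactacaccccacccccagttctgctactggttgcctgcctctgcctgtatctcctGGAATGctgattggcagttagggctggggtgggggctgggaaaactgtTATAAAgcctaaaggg
Eno3 (chr11:70470454-70470703, plus strand): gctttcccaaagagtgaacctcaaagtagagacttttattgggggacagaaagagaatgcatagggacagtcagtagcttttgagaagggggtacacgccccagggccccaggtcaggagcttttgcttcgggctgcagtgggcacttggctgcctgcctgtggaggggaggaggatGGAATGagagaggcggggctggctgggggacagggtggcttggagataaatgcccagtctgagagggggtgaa
Pygm (chr19:6384149-6384398, plus strand): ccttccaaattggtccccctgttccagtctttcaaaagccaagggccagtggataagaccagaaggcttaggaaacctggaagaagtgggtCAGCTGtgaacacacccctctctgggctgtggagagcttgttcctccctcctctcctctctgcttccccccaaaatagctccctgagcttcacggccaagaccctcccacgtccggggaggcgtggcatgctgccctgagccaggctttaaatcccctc
Eno1 (chr4:149610811-149611060, plus strand): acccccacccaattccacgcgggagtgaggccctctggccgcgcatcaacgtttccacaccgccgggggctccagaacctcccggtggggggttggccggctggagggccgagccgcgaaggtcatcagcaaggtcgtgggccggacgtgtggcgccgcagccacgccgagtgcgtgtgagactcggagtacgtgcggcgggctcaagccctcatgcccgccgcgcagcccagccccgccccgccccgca

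The Pgam2 window held all 4 motifs, with CAGGTG and CAGCTG at positions -195 and -188 from the start, a Mef2 site at -143, GGAATG at -64 and TATAAA at -16, each position being that of the first base of the match. Ckm and Pygm held 1 CAGCTG each and Eno3 held 1 GGAATG. Of the muscle genes not printed, Aldoa and Ldha held none of the 4 motifs and Gys1 held an E-box only, so the printed windows do not stand for all of them. The window of Eno1 held none of the 4 and 2 GC boxes (GGGCGG), which are not capitalised and overlapped by 1 base. Among all 23044 genes with a complete window, an E-box was present in 26.6%, a Mef2 site in 2.84%, GGAATG in 11.6%, TATAAA in 11.8% and GGGCGG in 41.1%. Of the 40 genes studied, 12 held an E-box, 3 a Mef2 site (Pgam2, Pfkfb1 and Ckb), 8 GGAATG, 5 TATAAA and 19 GGGCGG. These matches describe the letters only.

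Pol II over gene bodies was compared with input to ask which of the genes held more or less of it than the background. Reads were scaled to total mapped depth, so a gene that is lower or not called is not thereby shown to be untranscribed. For comparison, the 8 fibroblast markers had a median log2 ratio of -1.29, from -2.12 to 0.80. Over the body, from 500 bp past the start to the end, 26 of the 40 genes had more Pol II reads than input, 6 had fewer and 8 were not called. Among all 18953 genes tested, 39.3% were higher and 26.7% lower (limma on log2 of depth-scaled reads with 0.5 reads added, Benjamini-Hochberg adjusted p under 0.05). The median log2 ratio was 0.96 over the 40 genes and 0.12 over all genes. The level per gene length spanned from 0.130 to 51.5 RPKM, the reads per kb of body scaled to mapped depth, in replicate 1 and from 0.0752 to 60.3 in replicate 2, while input stayed between 0.147 and 1.16. In bulk chromatin, fewer nuclei with Pol II on a gene and less Pol II per nucleus cannot be told apart.

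Lower glycolysis stood highest. All 8 of its genes were higher than input, with a median log2 ratio of 3.60. Gapdh, the dehydrogenase that makes NADH in the pathway, held 326 and 685 Pol II reads over its body (chr6:125111872-125116485) against 62 and 92 input reads. Both Pol II libraries were far above both inputs, and the ratio was 69.7-fold (log2 6.12, SE 0.17, adjusted p = 2.2e-08). Eno1, the widely expressed enolase (chr4:149611061-149622988), held 356 and 648 Pol II reads against 209 and 219, a 25.1-fold difference (log2 4.65, SE 0.10). Eno3, the muscle enolase (chr11:70470704-70476015), held 99 and 189 against 74 and 86, which was 19.2-fold (log2 4.26, SE 0.16). For both enolases the 2 replicates gave nearly one value, 4.60 and 4.70 for Eno1 and 4.25 and 4.27 for Eno3. Pgam2, the muscle mutase (chr11:5701643-5703736), held 36 and 91 reads against 20 and 32 (log2 4.65, SE 0.31). Pkm2, which forms pyruvate, stood at log2 2.94, Pgam1 at 2.00, the phosphoglycerate kinase Pgk1 at 1.99 and the neuronal enolase Eno2 at 0.72 (adjusted p = 0.0345).

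In upper glycolysis 5 genes were higher and 2 lower. Aldoa, the muscle aldolase (chr7:133938749-133943961), held 115 and 214 Pol II reads against 41 and 77 input reads, a 31.1-fold difference (log2 4.96, SE 0.25). Triose phosphate isomerase Tpi1 stood at log2 3.83, glucose phosphate isomerase Gpi1 at 3.05, the muscle phosphofructokinase Pfkm at 2.25 and the liver form Pfkl at 1.63. The gap between Aldoa and Gpi1 was larger than the spread between replicates of either gene, since the lower value of Aldoa was 4.60 and the higher of Gpi1 was 3.09. Pfkp, the platelet phosphofructokinase, held 33 and 58 reads against 726 and 745 (log2 -0.57, SE 0.13). Pfkfb1, a regulatory kinase and phosphatase known from liver and muscle, held 13 and 16 against 325 and 334 (log2 -0.98, SE 0.24). Aldoc (0.46) and the inducible regulator Pfkfb3 (0.01) were not called.

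Glucose entry showed smaller ratios. Slc2a4, the insulin-responsive transporter GLUT4, held 18 and 22 Pol II reads against 46 and 53 input reads over 5607 bp of gene (log2 2.20, SE 0.32). Slc2a1, the basal transporter, stood at log2 1.0, and the hexokinases Hk1 and Hk2 at 0.60 and 0.36, all 3 called higher. Slc2a3, the neuronal transporter, held 3 reads in each Pol II library against 101 and 115 in input and was lower (log2 -1.47, SE 0.42). Its Pol II density was the lowest of the 40 genes in replicate 2.

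Pyruvate and lactate genes split. Ldha, the lactate dehydrogenase subunit of muscle (chr7:54101209-54110997), held 74 and 133 Pol II reads against 107 and 150 (log2 3.13, SE 0.17), whereas the heart subunit gene Ldhb held 10 and 13 against 230 and 221 (log2 -0.76, SE 0.26). Of the kinases that switch off pyruvate dehydrogenase, Pdk2 was higher (0.92) and Pdk1 was not called (-0.28). Pdk4, which rises in muscle on fasting, missed the threshold at log2 0.56 (adjusted p = 0.0504).

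For glycogen, 5 of 10 genes were higher and 1 lower. Pygm, the muscle phosphorylase (chr19:6384399-6398459), held 113 and 201 Pol II reads against 137 and 176 input reads (log2 3.44, SE 0.14). Gys1, the muscle synthase (chr7:52690214-52711989), held 212 and 358 against 265 and 331 (log2 3.38, SE 0.12). The replicates of both lay between 3.25 and 3.56, above every other glycogen gene. Ugp2, which makes the UDP-glucose that the synthase uses, was at 1.62, Pgm2 at 0.61 and the muscle phosphorylase kinase subunit Phka1 at 0.33. Gbe1, the branching enzyme, was lower at log2 -1.22 (SE 0.14), with 51 and 119 Pol II reads over a body with 2076 and 2017 input reads. The catalytic and regulatory subunits Phkg1 (0.19) and Phkb (0.00) and the brain and liver phosphorylases Pygb (-0.06) and Pygl (-0.52) were not called.

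Among the creatine kinases, Ckm (chr7:19996443-20006932) held 33 and 64 Pol II reads against 96 and 110 input reads (log2 2.33, SE 0.19). Ckb (chr12:112907566-112910549) held 23 and 31 against 8 and 27 (log2 4.32, SE 0.53). The 2 replicates of Ckb differed by far more than those of Ckm, at 5.30 and 3.33 against 2.31 and 2.36, and the input of Ckb was the lowest per kb of the 40 genes in replicate 1. The sarcomeric mitochondrial form Ckmt2 held 15 and 21 against 308 and 290 and was lower (log2 -0.55, SE 0.21, adjusted p = 0.0479).

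**Figure D1:**
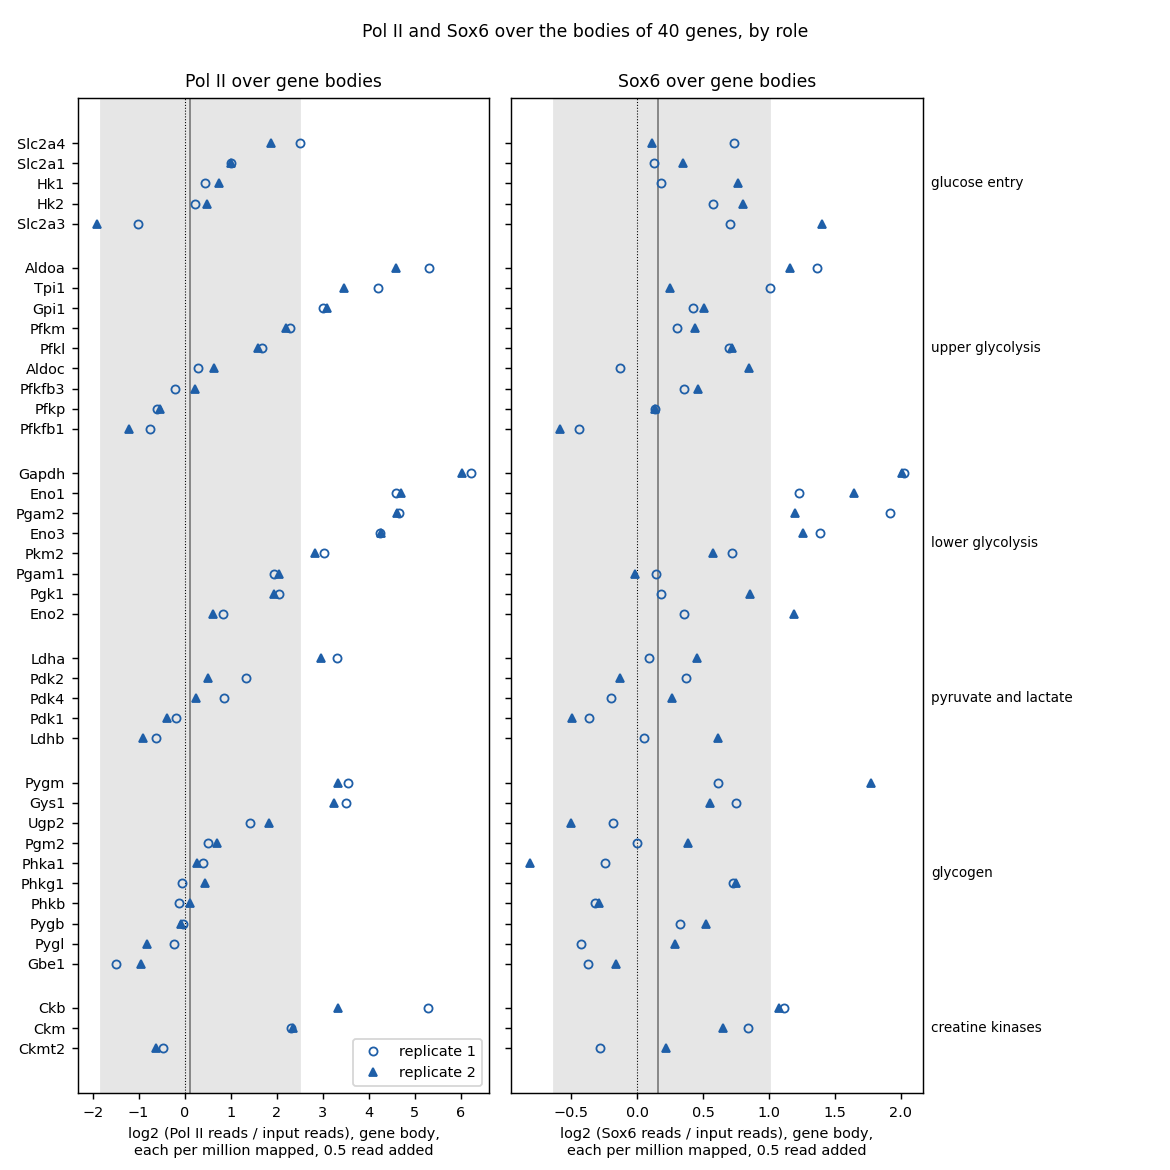
Log2 ratios of Pol II (left) and Sox6 (right) to the input of the same replicate number over the bodies of the 40 genes, grouped by role, with circles for replicate 1 and triangles for replicate 2. The grey band spans the 5th to 95th percentile and the grey line the median of all genes tested. For Pol II, Gapdh, Aldoa, Eno1, Pgam2, Ckb, Eno3, Tpi1, Pygm, Gys1, Ldha, Gpi1 and Pkm2 lie above the band in both replicates.

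Of the 26 genes called higher, 21 were called so under each alternative in which they were tested, and the other 5 were Eno2, Hk1, Hk2, Pdk2 and Phka1. Among the 21, Ckb, Pgam2 and Slc2a4 had too few input reads for the filter of 100 and were not tested under it. Of the 6 called lower, only Gbe1 was so under all 14 alternatives, and without input replicate 1 the count of lower genes was 1 and without input replicate 2 it was 3. Bodies of 10 genes overlapped another gene, namely Tpi1 (Spsb2), Gys1 (Ruvbl2), Pfkm (Senp1), Ckm, Hk1, Pfkp, Pygl, Phkg1, Ugp2 and Slc2a1, and reads carry no strand of transcription, so shared stretches cannot be divided. Processed copies of Gapdh and other glycolytic genes exist in the mouse genome, and the share of reads lost to them was not tested.

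Related genes were then set against each other within each replicate, by the ratio of Pol II to input reads of the muscle form over that of the other form. The muscle form was set by name, and Pdk2 and Pdk4 were each entered as such against Pdk1. Pfkm, Eno3, Pygm, Slc2a4 and Pdk1 each enter more than 1 pair, so the pairs are not separate comparisons. In 12 of 16 pairs the muscle form had the higher ratio in both replicates, and in 10 the exact 95% conditional interval lay above 1 in both. Over the whole gene this held for 12 pairs, and in the start window, with fewer reads, for 3. These intervals cover counting error only. Aldoa stood 35.8-fold (interval 12.1 to 145) and 16.2-fold (7.76 to 37.5) above Aldoc, the brain aldolase. Ldha stood 15.8-fold (7.74 to 35.7) and 15-fold (8.10 to 30) above Ldhb, the heart form. Glycogen phosphorylase Pygm stood 12.2-fold (7.40 to 21.0) and 10.6-fold (7.32 to 15.7) above Pygb and 14.0-fold and 17.9-fold above Pygl. Neither Pygb nor Pygl was called different from input.

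Among the phosphofructokinases, Pfkm stood 7.54-fold (5.09 to 11.5) and 6.71-fold (4.94 to 9.24) above Pfkp, but only 1.54-fold (1.08 to 2.22) and 1.53-fold (1.17 to 2.00) above Pfkl. Over bodies Pgam2 stood 6.69-fold (3.11 to 14.9) and 5.98-fold (3.46 to 10.5) above Pgam1. In the start window Pgam2 was at 0.827-fold (0.202 to 3.31) and 1.29-fold (0.364 to 4.59) relative to Pgam1, so no difference was resolved there. Pgam2 spans 2094 bp and Pgam1 6794 bp, and gene length was not taken into account in any of the pairs. Slc2a4 stood 13.0-fold and 15.7-fold above Slc2a3, with 3 reads of Slc2a3 in each library. Against Slc2a1 it stood 2.81-fold (1.42 to 5.42) in replicate 1 and 1.82-fold in replicate 2, where the interval of 0.997 to 3.24 reached 1. Pdk2 stood 2.84-fold (1.55 to 5.25) and 1.86-fold (1.12 to 3.09) above Pdk1. Pdk4 stood 2.06-fold (1.14 to 3.74) and 1.56-fold (0.931 to 2.60) above Pdk1.

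The enolases did not follow the tissue names. Eno3 stood 11.1-fold (5.54 to 23.8) and 12.9-fold (7.31 to 23.7) above Eno2, but 0.786-fold (0.548 to 1.13) and 0.743-fold (0.547 to 1.01) relative to Eno1, with both body intervals reaching 1. Over the whole gene, start included, both intervals lay below 1 (0.502 to 0.988 and 0.545 to 0.976), and so they did in the start window (0.0642 to 0.762 and 0.127 to 0.996). In RPKM, Eno1 was at 20.2 and 20.5 and Eno3 at 13.4 and 14.2. Ckm stood below Ckb, at 0.121-fold (0.043 to 0.314) and 0.508-fold (0.266 to 0.967), the 1 pair with both intervals below 1 over bodies. Over the whole gene the interval in replicate 2 reached 1 (0.307 to 1.03), and Eno3 over Eno1 was then the 1 such pair. The wide gap between these replicates goes with 8 input reads of Ckb in replicate 1 and 27 in replicate 2. In the start window, by contrast, Ckm held 16 and 22 Pol II reads and Ckb 2 and 8, which gave 4.35-fold (0.732 to 47.7) and 1.60-fold (0.456 to 5.83), so the order of the 2 genes at the start was not resolved. Hk2 did not differ from Hk1 beyond counting error, at 0.855-fold (0.600 to 1.20) and 0.833-fold (0.651 to 1.06). Pfkfb1 stood at 0.680-fold (0.289 to 1.59) and 0.366-fold (0.187 to 0.684) relative to Pfkfb3.

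**Figure D2:**
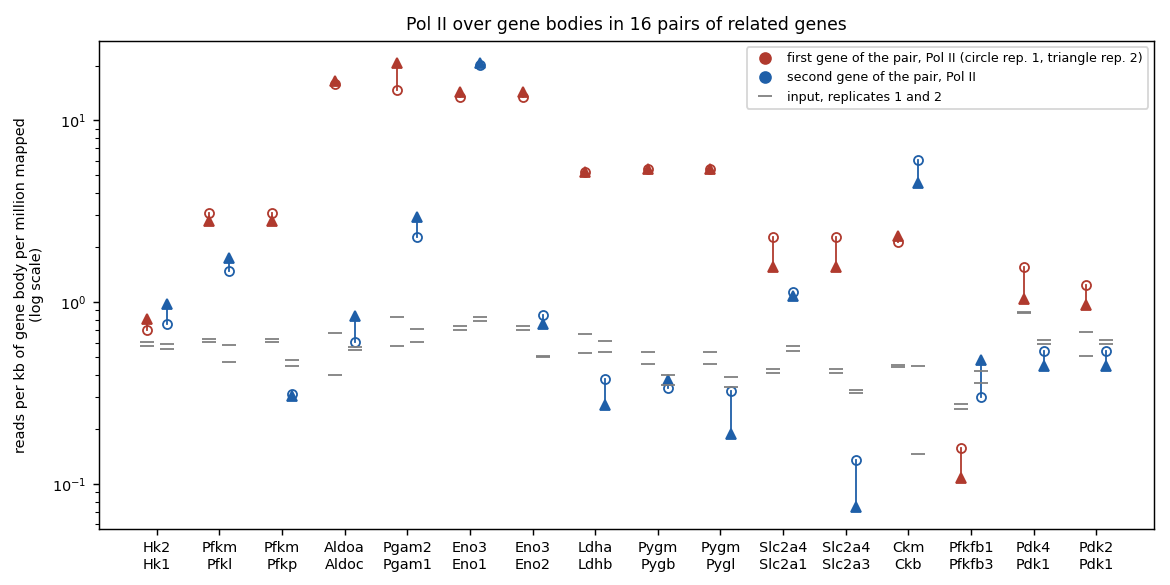
Pol II level over the gene body in RPKM (log axis) in 16 pairs of related genes, the first named in red and the second in blue, with circles for replicate 1, triangles for replicate 2 and grey dashes for input of the same gene. Ldhb, Pfkp and Slc2a3 lie below their own input while Ldha, Pfkm and Slc2a4 lie above, and Eno1 lies above Eno3.

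At start sites, counted within 500 bp on each side, 30 of the 40 genes had more Pol II than input and none fewer, with none fewer at an unadjusted p under 0.05 either (limma, adjusted over 17867 windows). Among all windows 46.0% were higher and 0.0672% lower, and the median log2 ratio was 2.48 over the 40 genes and 1.32 over all. At the start of the longest model, Eno1 stood highest, with 19 and 33 Pol II reads against 6 and 8 input reads (log2 5.27, SE 0.42), followed by Pkm2 (4.45), Tpi1 (4.26), Gys1 (4.16) and Ldha (4.08). Aldoa (4.0), Gapdh (3.95), Pygm (3.79), Ckm (3.67), Pgam2 (3.62), Pgam1 (3.58) and Eno3 (3.56) came next. From Pkm2 down, neighbours in this order were closer than their standard errors. Gbe1 and Ldhb, which were lower than input over their bodies, had log2 ratios of 2.45 and 1.90 at their starts. Neither start was called with median-centred scaling. With TMM scaling Gbe1 was not called at its start either, and Ldhb turned to -0.18. Windows held few reads, with a median of 4 and 8 Pol II reads over the 40 genes, and unchanged windows of this depth had a median log2 ratio of 0.37 in simulation. When ratios were centred on the median of all windows, 16 of the 40 genes were higher and 1 lower, against 23.3% and 7.51% of all windows, and with TMM scaling 14 and 3, against 12.2% and 28.96%.

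The Pol II peaks that the authors called in each library were then placed on the genes. A peak lay within 500 bp of the start in both replicate lists for 11 of the 40 genes (27.5%), namely Aldoa, Ckm, Eno1, Eno3, Gapdh, Gys1, Ldha, Pgam2, Pkm2, Pygm and Tpi1, against 5.91% of all genes. A peak lay inside the gene in both lists for 14 (35%), which added Gpi1, Hk1 and Pfkm, against 10.4% of all genes. Long genes have more room for a peak, and length was not taken into account.

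Where Pol II lay along the gene differed among the 20 genes whose bodies were called higher with a log2 ratio above 1. The ratio of start density to body density, each relative to input, had a median log2 of 0.56 over these 20 genes and 0.73 over the 4732 genes of all that met the same limit. Slc2a1 leaned most to the start, at 2.53 and 1.97, and Ckm was at 1.53 and 1.14. Gapdh leaned to the body, at -2.20 and -2.15, and so did Ckb, at -3.39 and -0.50. Pgam2 was at -0.92 and -1.13, Aldoa at -1.31 and -0.61 and Eno3 at -0.86 and -0.54. In all, 6 of the 20 (30%) were below 0 in both replicates, Ckb and Pfkm among them, against 15.9% of the 4732 genes. Of these 6, all but Pfkm (39859 bp) were short, from 2094 bp for Pgam2 to 5312 bp for Eno3. Tpi1, at 3711 bp, was above 0 in both replicates. Gene length was not taken into account in this comparison.

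**Figure D3:**
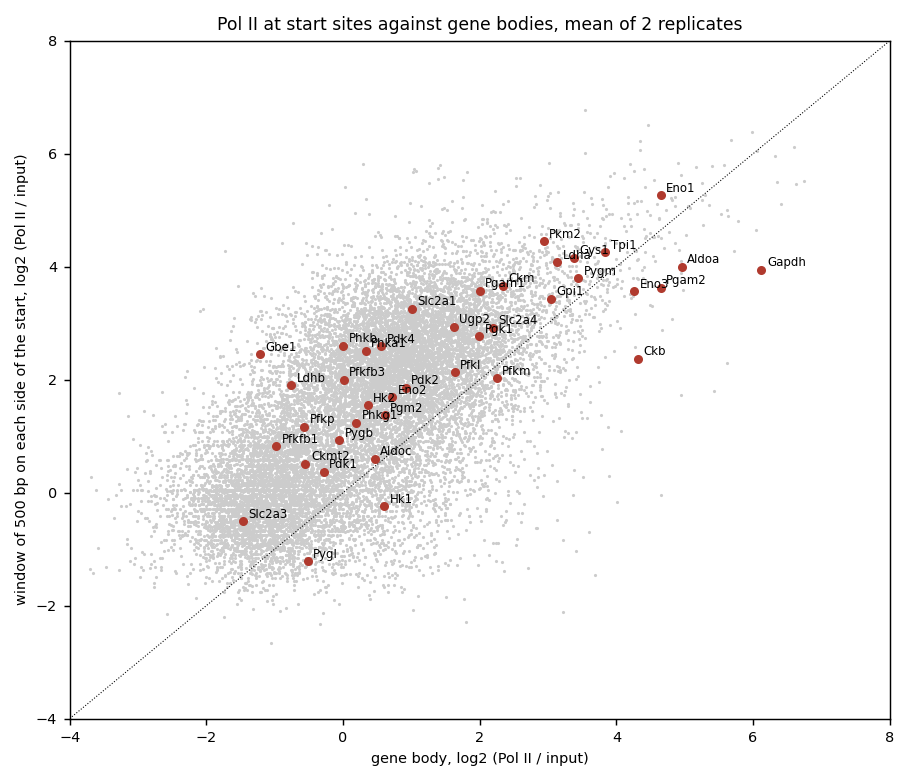
Log2 ratio of Pol II to input within 500 bp of the start (vertical axis) against that over the gene body (horizontal axis), each the mean of 2 replicates, with the 40 genes in red and all genes in grey. Gapdh, Ckb, Pgam2 and Aldoa fall below the dotted line of equal ratios, and Slc2a1, Gbe1 and Phkb lie well above it.

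The choice of start bore on this. Of the 40 genes, 19 had more than 1 annotated start at least 500 bp apart, and the window above sat at the start of the longest model. For Gapdh the start 694 bp further in held 54 and 104 Pol II reads against 17 and 13 input reads, while that of the longest model held 24 and 32 against 21 and 19. For Aldoa the 3 starts held, in order along the gene, 18 and 33, 37 and 67, and 19 and 39 Pol II reads, so the middle start at 1193 bp was the highest in both replicates. For Eno3 the start at 594 bp held 32 and 54 reads against 19 and 38 at the first. With these starts the ratio of start to body turned above 0 in both replicates for 3 of the 6 genes. These were Aldoa (1.05 and 0.65), Eno3 (0.18 and 0.14) and Pfkm (0.25 and 0.40 at the start 15882 bp in), and Gapdh was at -0.75 and 0.06. The body was kept as that of the longest model, so windows at inner starts lay wholly or partly inside it. Ratios at inner starts thus set a stretch of the body against the body that holds it. At the inner start of Gapdh and the middle start of Aldoa the Pol II ratio to input exceeded that at the first Eno1 start in both replicates. Aldoa stayed below 0 at its last start (-0.28 and -0.21), and genes that leaned to the first start turned below 0 at another, namely Eno1 (-0.19 and -0.43) and Tpi1 (-0.36 and -0.51). Windows of starts under 1000 bp apart share reads, as they do for Gapdh and Eno3. For Pfkm, 3 starts spread over 19471 bp held 5 and 3, 5 and 13, and 6 and 13 Pol II reads, and log2 ratios of 2.01 to 2.60 lay within the counting error of so few reads. The first is within 1 kb of the start of Senp1. For Hk1, 4 starts held at most 6 Pol II reads each.

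Pol II was also counted in the 3 kb past the annotated end, relative to input. Of the 20 genes, 10 had a higher log2 ratio past the end than over the body in both replicates and 4 a lower one, and of the 9 with no other gene there 5 were higher and 2 lower. Without regard to input, the RPKM was higher past the end in both replicates for 12 of the 20 and lower for 5. These counts were not made over all genes, so whether they differ from those of other transcribed genes was not tested. Past the end of Eno1, where no other gene is annotated, the log2 ratio was 5.02 and 4.97 in replicates 1 and 2, against 4.60 and 4.70 over the body, and the level was 35.1 and 35.8 RPKM, against 20.2 and 20.5. Eno1 was thus higher past its end on both scales. Gpi1, also with no other gene there, stood at log2 3.41 and 3.73, against 3.01 and 3.09, although its RPKM was lower past the end, as was its input. Ldha was lower past its end on both scales, at log2 2.61 and 2.15 against 3.31 and 2.96. For Gapdh, Aldoa and Ckm the replicates differed in direction relative to input. Gapdh stood at log2 6.40 and 5.85 past the end, against 6.22 and 6.02, and the gene Iffo1 ends there on the opposite strand, so that its share cannot be told apart. Ckm stood at 2.25 and 3.03, against 2.31 and 2.36.

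Few of the 40 genes had a Sox6 peak nearby, as was so for all genes. A peak common to both Sox6 libraries lay in or within 20 kb of 3 genes (7.5%), against 4.29% of all genes, and inside the gene for 1 (2.5%), Eno1, against 2.17%. With 3 genes these shares are close to the background. The 4 peaks are shown because they are the common Sox6 sites within 20 kb of the 40 genes. The sequences are from mm9, with capitals marking Sox matches (ACAAAG or ACAATG) and E-boxes (CAGCTG or CAGGTG) on either strand. The third lies in an exon of Iffo1, so only the 30 bases around its Sox match are given.
Eno1 intron peak (chr4:149620142-149620261, plus strand): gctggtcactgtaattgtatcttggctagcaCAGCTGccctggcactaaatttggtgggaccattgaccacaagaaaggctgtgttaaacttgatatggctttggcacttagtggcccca
Gapdh distal peak (chr6:125107092-125107391, plus strand): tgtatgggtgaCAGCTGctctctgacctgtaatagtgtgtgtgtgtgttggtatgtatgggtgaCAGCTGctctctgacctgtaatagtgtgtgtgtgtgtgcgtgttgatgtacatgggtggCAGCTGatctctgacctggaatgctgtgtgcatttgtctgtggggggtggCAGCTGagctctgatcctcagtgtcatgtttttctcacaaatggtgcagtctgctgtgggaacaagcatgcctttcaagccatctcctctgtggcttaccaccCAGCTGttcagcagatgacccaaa
Gapdh proximal peak (chr6:125111545-125111574, plus strand): ggtacaattaacCTTTGTttgcagataaaa
Gpi1 upstream peak (chr7:35032042-35032201, plus strand): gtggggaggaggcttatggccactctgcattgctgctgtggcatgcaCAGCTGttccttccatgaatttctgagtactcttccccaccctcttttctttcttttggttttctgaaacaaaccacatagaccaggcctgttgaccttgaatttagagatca

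The Eno1 peak (chr4:149620142-149620261) lay in intron 7, 9140 bp past the first start and 2606 bp past the second. Within 450 bp at its centre the Sox6 libraries held 18 and 13 reads and the inputs 16 and 15, which scaled to depth was 6.03 and 8.85 RPM against 0.728 and 0.619. Its log2 ratio of 3.45 was near the median of 3.52 of all 1066 common peaks. Pol II held 22 and 28 reads there. The sequence held 1 CAGCTG and no Sox match.

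Gapdh had 2 peaks past its end, both inside Iffo1, an intermediate filament family member. The proximal peak (chr6:125111202-125111721), 410 bp past the end, held 24 and 18 Sox6 reads against 9 and 11 (log2 4.49). Pol II was at its densest there, at 92 and 186 reads, and its part in the Sox6 value was not tested. The distal peak (chr6:125107082-125107401), 4630 bp past the end, held 36 and 16 Sox6 reads against 9 and 19 (log2 4.31), with 47 and 85 Pol II reads. The 300 bases searched in the distal peak held CAGCTG 5 times and no Sox match. Of the 1066 common peaks, 2 (0.188%) held 5 or more in the same length. In the distal peak the first 2 matches lie in copies of one repeated stretch and the following 2 in similar bases, so the 5 are not independent matches. The 300 bases of the proximal peak held 1 Sox match and no E-box.

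The peak near Gpi1 (chr7:35032042-35032201) lay upstream of its start, at position -16821, inside the gene 4931406P16Rik, and the nearest start of any gene was that of Gm12758 at 12725 bp. Sox6 reads there numbered 77 and 31, and input reads 12 and 11, or 25.8 and 21.1 RPM against 0.546 and 0.454. At log2 5.51 it was the strongest of the 4 and lay at the 98th percentile of the common peaks. Pol II held 1 and 6 reads there, so Pol II was not dense at this site as it was at the Gapdh peaks. The sequence held 1 CAGCTG and no Sox match. For comparison, a Sox match was present at the centre of 45.4% of common peaks over 120 bases, 53.2% over 160 and 65.9% over 300, and an E-box in 49.5%, 58.6% and 76.0%. Since the peaks were called on these reads, with 96.7% of the common peaks above input in the same fit, the ratios describe them and are no test.

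**Figure D4:**
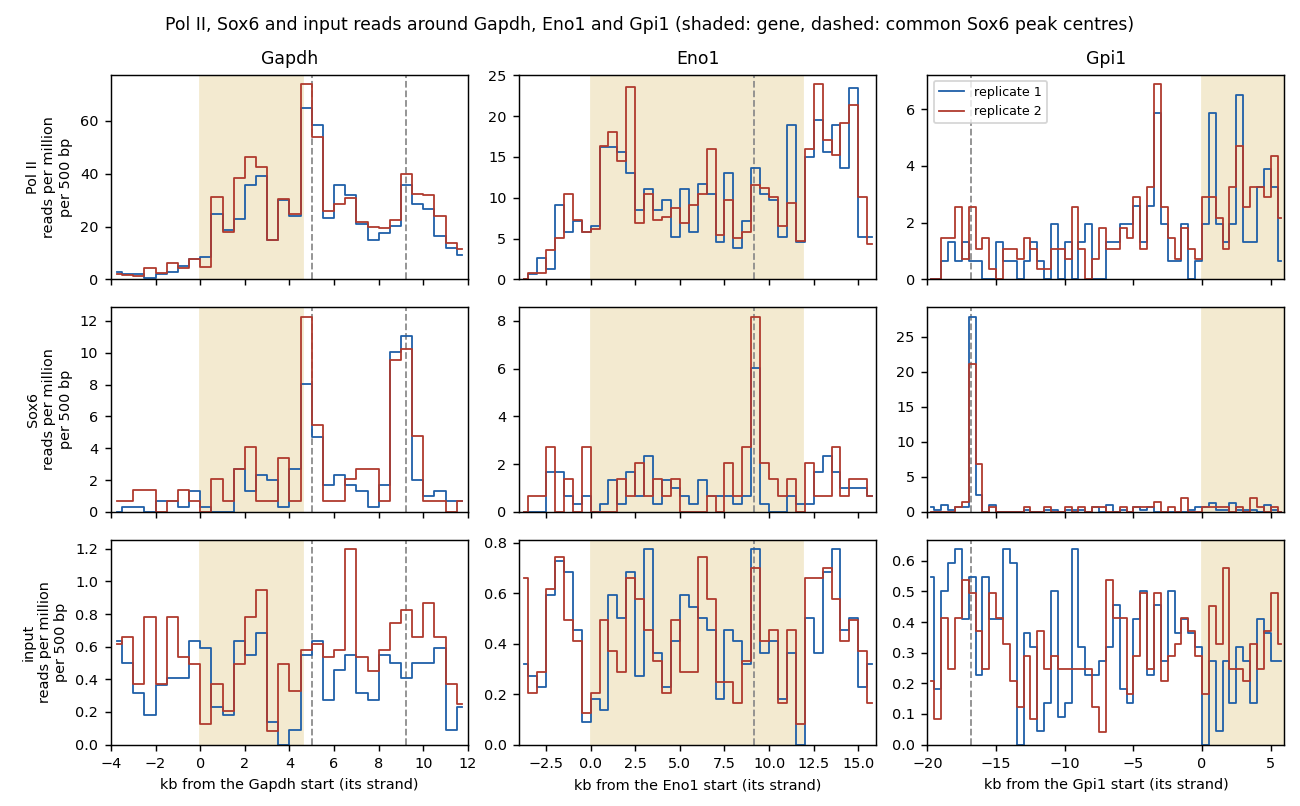
Depth-scaled reads (RPM) per 500 bp of Pol II (top), Sox6 (middle) and input (bottom) around Gapdh, Eno1 and Gpi1, against distance in kb from the gene's start along its strand, with replicate 1 in blue, replicate 2 in red, the gene shaded and common Sox6 peak centres dashed. Sox6 rises at the dashed lines in both replicates, over dense Pol II at Gapdh (65.0 and 73.9 RPM of Pol II from 4.5 to 5 kb) and over sparse Pol II upstream of Gpi1.

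Over whole gene bodies, 5 of the 40 genes had more Sox6 reads than input and none fewer, against 5.47% higher and 1.75% lower among all genes. At an unadjusted p under 0.05, 18 were higher and 5 lower, against 20.8% and 7.94% of all genes. Over the Gapdh body 34 and 22 reads came from Sox6 and 62 and 92 from input, which was 4.04-fold (log2 2.01, SE 0.28, adjusted p = 0.0171). Eno1 held 66 and 41 against 209 and 219 (log2 1.43, SE 0.19, adjusted p = 0.0166), and 18 and 13 of these Sox6 reads lay at the intron peak. Eno3 held 26 and 12 against 74 and 86 (log2 1.32, SE 0.27, adjusted p = 0.0284). The other two were Pkm2 (0.65) and Hk2 (0.69). Except for Hk2, with a Pol II log2 ratio of 0.36, these genes also had Pol II log2 ratios of 2.94 or more over the same bodies. The Sox6 and Pol II ratios share the input libraries, and the part of Pol II density in the Sox6 values was not tested.

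Gapdh and Eno1 were called under all alternatives, and Eno3, Hk2 and Pkm2 were not. With the replicate number as a block, 12 of the 40 genes were higher and 3 lower, against 14.7% and 6.13% of all genes. With 1 library left out the count of higher genes ran from 2 without input replicate 1 to 25 without Sox6 replicate 1, against 0.929% and 36.2% of all genes. At start sites no gene had more or less Sox6 than input (limma), against 2.00% of all windows called higher. At an unadjusted p under 0.05, 9 were higher, against 14.1% of all windows. Of the 40, 27 were higher with 2 reads added, 21 without Sox6 replicate 1 and 2 without Sox6 replicate 2, where 49.5%, 34.2% and 7.31% of all windows were. With 0.1 RPM added 3 were lower, against 9.68% of all windows. The highest was Eno1 at log2 2.31, from 2 and 4 Sox6 reads.

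Another 48 genes of the same pathways were counted for comparison, and 47 had enough input reads. Over bodies, 24 were higher in Pol II than input and 11 lower, against 39.3% and 26.7% of all genes. Creatine synthesis and uptake stood out among the higher, with Gamt, the last enzyme of creatine synthesis, at log2 4.25 (SE 0.24), Gatm, the first, at 1.84 and the creatine transporter Slc6a8 at 2.57. Adenylate kinase Ak1 was at 3.57, the pyruvate dehydrogenase subunit genes Pdha1 and Pdhb at 2.50 and 2.09 and the lactate exporter Slc16a3 at 1.80. Among the lower were the liver genes Slc2a2 (-2.06), Fbp1 (-1.08), Pklr (-0.93) and Gys2 (-0.75) and the muscle fructose bisphosphatase Fbp2 (-1.42). The liver phosphorylase kinase subunits Phka2 (1.70) and Phkg2 (0.82) were higher, so forms known from liver lay on both sides of input. For Sox6, Gamt (1.64) and Ak1 (0.97) were higher over bodies, and Pgm5 and Ak1 were among those higher at starts.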

How the data were processed

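Sox6 ChIP, Pol II ChIP and input DNA were sequenced in 2 independent experiments each, and samples were grouped by the antibody given in the labels. The authors aligned single-end reads to NCBI Build 37 (mm9) with Bowtie (version 0.12.5, also in the submitters' processing notes), kept uniquely mapped reads, called peaks with SISSRs against input and merged Sox6 peaks within 50 bp. The deposited files hold positions of reads and of peaks, with no counts or normalization. Whether repeated positions were removed is not given in the sources used here.

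Reads were counted by their 5' end, with Python 3.11.15 (numpy 2.4.6, pandas 2.3.3, scipy 1.17.1, matplotlib 3.10.9), over GENCODE genes of the same build whose name matched RefSeq, using the longest model. Windows needed 30 input reads (bodies) or 10 (starts) in both inputs together. limma 3.58.1 (R 4.3.3, with trend) was fitted to log2 values for each comparison, 2 ChIP against 2 input libraries, with Benjamini-Hochberg adjustment over all genes. The p-values at starts lean on a spread shared by all windows. In simulation with 200 changed genes, 2 of 50 bodies changed 2-fold in Pol II and 42 of 50 changed 4-fold were recovered and 1 of 18753 unchanged ones was called. At starts, 20 of 50 changed 4-fold were recovered and 45 of 17667 unchanged ones called, 44 of them higher. The spread of the simulated counts was a fixed value, not estimated from these data, and far fewer genes changed than were called here. These rates therefore do not give the recovery or false calls of the fits reported, where the Hk2 body was called at 1.28-fold. Depths are given with the results, and intervals cover counting error only.

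The 40 genes, the gene lists and pairs were chosen with earlier results of these data known. All 40 genes were described by role, with Sox6 values for those called or near a peak. Alternatives covered scaling, added value, filters, windows, repeated positions, read shift, the replicate block and each library left out. Some genes and sequences of these lists are not reported here.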

Additional observations from a re-analysis of the deposited data

How the results depend on the processing

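For Pol II over bodies, counts moved by over 1.5 times only when 1 library was left out, which gave 6283 to 8416 genes higher and 3010 to 6873 lower over bodies, against 7458 and 5065. At starts, against 8213 higher and 12 lower, median-centred scaling gave 4158 and 1342, TMM scaling 2178 and 5174, 2 reads added 14671 and 0, 0.1 RPM added 3280 lower, a filter of 20 input reads 31 lower, windows of 250 bp 4543 and 0, windows of 1000 bp 306 lower, and leaving out 1 library 6319 to 9465 higher and 0 to 744 lower. Sox6 over bodies, against 1036 higher and 332 lower, gave 402 and 904 with median-centred scaling, 458 higher with TMM scaling, 1949 higher with 2 reads added, 357 and 105 with 0.1 RPM added, 2793 and 1161 with the replicate block, and 176 to 6860 and 40 to 3030 with 1 library left out. Sox6 at starts, against 357 higher and 0 lower, gave 43 with median-centred scaling, 33 and 1 with TMM scaling, 8849 with 2 reads added, 114 and 1729 with 0.1 RPM added, 1483 with no filter, 104 and 76 with windows of 250 and 1000 bp, and 3 to 6106 and 0 to 532 with 1 library left out. Sox6 peaks of replicate 1 alone lay near 6 genes, against 3, and the median of start over body was 0.77 with windows of 250 bp, against 0.56, while that of the 4732 genes was 1.12, against 0.73. The share of higher among called genes moved with scaling, at starts from 99.9% to 75.6% (median-centred) and 29.6% (TMM) for Pol II, and over bodies from 75.7% to 30.8% and 48.9% for Sox6 and from 59.6% to 55.2% and 49.5% for Pol II.

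Signs turned for the following named genes. With TMM scaling, log2 ratios of Pol II at starts turned negative for Aldoc (-1.49), Ckmt2 (-1.57), Eno2 (-0.39), Hk2 (-0.53), Ldhb (-0.18), Pdk1 (-1.72), Pdk2 (-0.22), Pfkfb1 (-1.26), Pfkfb3 (-0.084), Pfkm (-0.0598), Pfkp (-0.92), Pgm2 (-0.72), Phkg1 (-0.84) and Pygb (-1.15), and over bodies for Pfkfb3 (-0.26), Phkb (-0.27) and Phkg1 (-0.0805). With median-centred scaling they did so at starts for Aldoc (-0.73), Ckmt2 (-0.81), Pdk1 (-0.95), Pfkfb1 (-0.50), Pfkp (-0.16), Phkg1 (-0.0811) and Pygb (-0.39), and over bodies for Pfkfb3 (-0.11) and Phkb (-0.12). With 0.1 RPM added they did so at starts for Pdk1 (-0.81), Pfkfb1 (-0.21) and Pygb (-0.14), and over bodies for Pfkfb3 (-0.0236) and Phkb (-0.00275). With 2 reads added, Hk1 (1.08), Pygl (0.63) and Slc2a3 (1.23) turned positive at starts and Pygb (0.00676) over the body. Windows of 1000 bp gave 0.0878 for Hk1, -0.14 for Pfkfb1 and 0.22 for Pygl, windows of 250 bp 0.0256 for Pygl, and repeated positions counted once -0.00207 for the body of Phkb. With 1 library left out, starts ran from -0.28 to 1.30 for Ckmt2, -1.46 to 0.97 for Hk1, -0.37 to 1.11 for Pdk1, -0.40 to 2.03 for Pfkfb1 and -0.69 to 2.55 for Pygb, and bodies from -0.31 to 0.33 for Pfkfb3, -0.073 to 0.0749 for Phkb, -0.0219 to 0.40 for Phkg1 and -0.15 to 0.0366 for Pygb. In the start window the log2 ratio within pairs turned for Ckm over Ckb (1.30), Hk2 over Hk1 (1.79), Pfkm over Pfkl (-0.11) and Slc2a4 over Slc2a1 (-0.33).

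The replicate number was shared by ChIP and input, and deviations of same-numbered libraries correlated at -0.02 and 0.03 for Pol II over bodies and at starts and at 0.04 and 0.03 for Sox6. Over the 9247 bodies with at least 50 Sox6 reads the correlation was 0.200, and with 2 pairs the data do not settle pairing. With the block, Pol II over bodies called 7501 genes higher and 5217 lower, and 26 and 7 of the 40.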

Other observations

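Peaks called in 1 Sox6 library alone added sites near the 40 genes. The list of replicate 1 had a peak in or within 20 kb of 6 genes, against 9.60% of all genes, adding one 3404 bp past the end of Ckb (chr12:112903952-112904371), one 4317 bp past Ldhb (chr6:142434412-142434491), one 15515 bp past Pdk1 (chr2:71757392-71757471) and a further one in Iffo1, 14520 bp past Gapdh (chr6:125097132-125097571). The list of replicate 2 had a peak near 3 genes, against 6.63%, adding one in intron 2 of Gapdh (chr6:125114172-125114251). These sites were not common to both libraries.

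Past the end of Gys1, the 3 kb that hold Ftl1 carried Pol II at log2 ratios to input of 5.66 and 5.22, against 3.51 and 3.25 over the Gys1 body. Past the end of Pgam2, where Dbnl lies, the log2 ratios were 4.39 and 4.52, against 4.67 and 4.63 over the body.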
